A study of Mus musculus with 6 samples.

Results

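The genes described here encode the proteins of the cytosolic ribosome, the particle that translates messenger RNA in every cell. They were taken as all probe sets whose annotation gave a single gene symbol starting with Rpl or Rps and a digit, or equal to Rplp0, Rplp1, Rplp2 or Rpsa. The ribosomal S6 kinases, Rps19bp1 and pseudogenes were left out. The rule found 105 of the 45101 probe sets on the array, for 49 genes: 26 of the large subunit (Rpl) and 23 of the small subunit (Rps). By the RefSeq table of the mouse assembly GRCm38.p6, which matched all 49, the genes lie on 17 chromosomes, 2 of them on X.

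The arrays measured RNA of pancreatic islets from male OF1 mice aged 10 weeks. The mice were given bisphenol A (BPA), an oestrogen-like compound used in plastics, or its vehicle, corn oil. The 3 BPA samples and 3 control samples were each put on 1 Affymetrix array that reads the 3′ part of transcripts, and the study asked how a short exposure changes islet transcripts. The labels disagree on the exposure: the series' design gives 100 µg/kg/day in injections of 50 µg/kg for 4 days with islets taken 16 hours after the last one, the samples' protocol gives 2 days, and the source names give 1 nM for 48 hours. No genotype beyond the OF1 strain is given, samples are labelled as biological replicates, and how many animals gave each of them is not stated in the sources used. If the 3 samples of a group were not separate animals, the tests below measure technical spread. All 13 islet endocrine markers named on the array had a mean above the median probe set. Their median difference between groups was -0.0090 on the log2 scale. All 20 acinar markers named on the array also lay above that median, so this does not set islet apart from acinar tissue.

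A cytosolic ribosome joins a small subunit, which reads the messenger RNA, to a large subunit, which forms the peptide bond. Cells make the proteins of both in matched amounts, and many of the messenger RNAs start with a run of C and T bases, the 5′ terminal oligopyrimidine tract, through which growth signals such as mTOR set their translation. Beta cells depend on this machinery because proinsulin is among their most translated products. Ribosomal protein genes also have many processed pseudogenes, so a short probe can match more than 1 locus, and this limits how far any single probe set can be assigned to its gene.

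All values are log2 signals as deposited. Of the 105 probe sets, 89 lay above the median of all probe sets (6.60) and entered the test, for 45 of the 49 genes. Probes of different sequence bind with different strength, so levels are compared only between arrays and not between probe sets. Of the 6 arrays, BPA replicate 3 and control replicate 3 stood apart from the others: they correlated with each other at 0.993 over all probe sets, and with the other arrays of their own group at 0.982 to 0.986. The array medians were 6.55 to 6.65.

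None of the ribosomal protein genes passed the test. Most had slightly more signal after BPA: the difference was above 0 for 37 of the 45 genes and below 0 for 8, with a median of 0.09 and quartiles of 0.03 and 0.20 (log2). Over all 11787 tested genes it was above 0 in 57.7%, with a median of 0.03. The small subunit had 18 of 21 genes above 0 (median 0.12) and the large subunit 19 of 24 (median 0.08). In limma's moderated test with Benjamini-Hochberg adjustment over all 22518 tested probe sets, 0 of the 89 member probe sets were higher and 0 lower at an adjusted p under 0.05, against 0.0% of all probe sets in each direction; the smallest adjusted p of a member was 0.655. At an unadjusted p under 0.05, 13 member probe sets were higher and 0 lower, where 3.84% and 2.64% of all tested probe sets were. By probe set, 69 of 89 differences were above 0, against 52.6% of all tested probe sets, and in 16 the BPA arrays all read above the controls and in 0 below, against 7.83% and 4.35% of all.

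Counted by gene on the brightest probe set, 7 of 45 were higher and 0 lower at an unadjusted p under 0.05, against 3.98% and 1.36% of all tested genes. This count moved with the settings: 3 genes were higher with eBayes without a trend, 4 without BPA replicate 3, control replicate 1 or control replicate 2, and 9 with the replicate number as a block. In 4 settings that left out arrays, 1 or 2 genes were lower. The 3 BPA arrays all read above the 3 control arrays for 10 of the 45 genes, and below them for 0, where 8.48% and 3.53% of all tested genes separated this way. Without both replicate 3 arrays, 33 of 45 genes were above 0 with a median of 0.09, and without BPA replicate 1 and control replicate 3 it was 34 of 45 with a median of 0.09. Leaving out 1 array at a time gave 31 to 40 genes, the fewest without BPA replicate 1 and the most without BPA replicate 2.

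**Figure D1:**
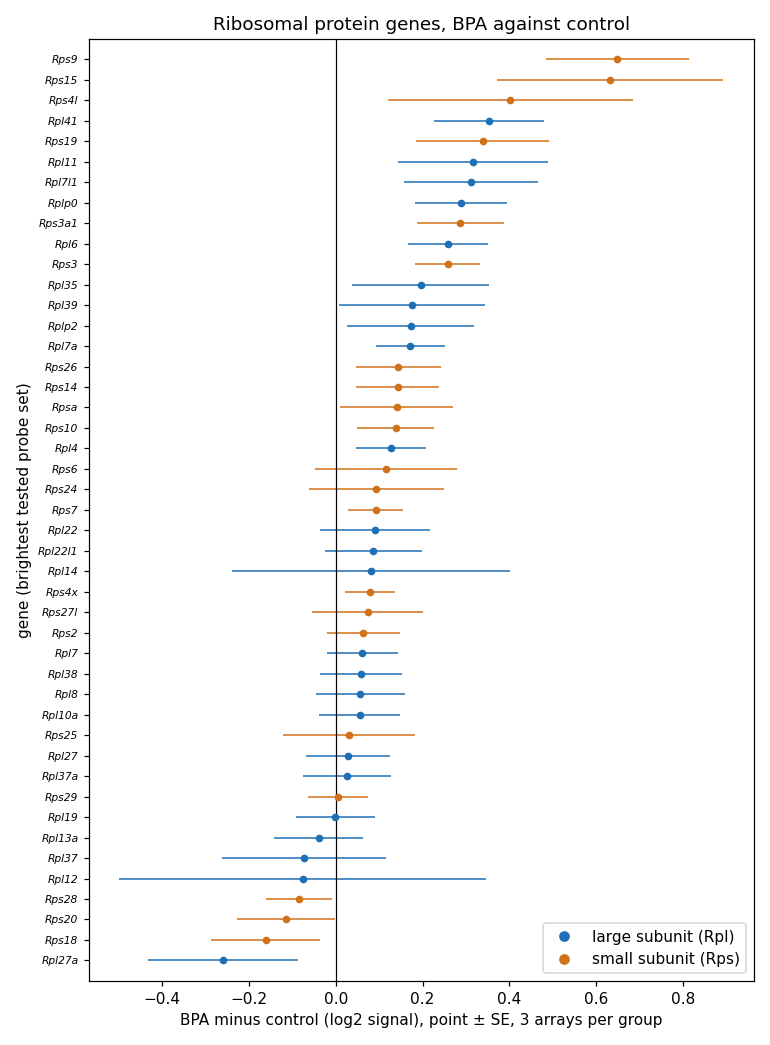
BPA minus control difference in log2 signal (x axis) for the 45 tested ribosomal protein genes (y axis, sorted), each on its brightest tested probe set, as a point with its standard error from 3 arrays per group. Differences lie between -0.26 (Rpl27a) and 0.65 (Rps9), 37 are above 0, and genes of the large (blue) and small (orange) subunit are mixed along the whole order.

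Among small subunit proteins, Rps9 had the largest difference on a brightest probe set. Rps9, a protein bound early to the small subunit RNA, read 11.89, 11.78 and 12.01 in BPA replicates 1 to 3, against 11.07, 11.08 and 11.60 in control replicates 1 to 3. All 3 BPA arrays lay above all 3 controls, and control replicate 3 was the closest to them. The means were 11.90 ± 0.11 for BPA and 11.25 ± 0.30 for controls (SD, 3 arrays each), a difference of 0.65 ± 0.16 (SE, limma adjusted p = 0.655), or 1.57 times the control signal. Rps3, which lines the channel where messenger RNA enters the ribosome, read 14.02, 13.97 and 14.01 after BPA, against 13.63, 13.80 and 13.80 in controls. Its groups did not overlap and the BPA arrays were nearly alike, with a difference of 0.26 ± 0.07 (SE, limma adjusted p = 0.674).

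Rps3a1, another small subunit protein, read 13.76, 13.84 and 13.86 after BPA, against 13.69, 13.35 and 13.57 in controls. The groups did not overlap, though BPA replicate 1 and control replicate 1 differed by little, and the difference was 0.29 ± 0.10 (SE, limma adjusted p = 0.726). Rps15, a protein of the head of the small subunit near the decoding site, read 11.942, 11.998 and 12.648 after BPA, against 11.528, 11.182 and 11.981 in controls. Here the groups overlapped, since control replicate 3 read above BPA replicate 1, and in each group replicate 3 was the highest array. The difference was 0.63 ± 0.26 (SE, limma adjusted p = 0.757). Rps19, whose human counterpart is mutated in Diamond-Blackfan anaemia, read 11.54, 11.62 and 11.87 after BPA, against 11.08, 11.37 and 11.56 in controls, again with replicate 3 highest in both groups and a small overlap. It differed by 0.34 ± 0.15 (SE, limma adjusted p = 0.791).

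Of the large subunit, Rplp0, the base of the stalk that recruits elongation factors, read 13.33, 13.36 and 13.22 after BPA, against 12.82, 13.15 and 13.08 in controls. The groups did not overlap, with control replicate 1 well below the rest, and the difference was 0.29 ± 0.11 (SE, limma adjusted p = 0.736). Its stalk partner Rplp2 had overlapping groups and a difference of 0.17 ± 0.15 (SE). Rpl6 read 13.78, 13.53 and 13.58 after BPA, against 13.30, 13.45 and 13.37 in controls, with no overlap and a difference of 0.26 ± 0.09 (SE, limma adjusted p = 0.734). Rpl41, a very short basic peptide at the interface of the subunits, read 13.75, 13.81 and 14.08 after BPA, against 13.46, 13.39 and 13.73 in controls on its brightest probe set. These groups lay next to each other without overlap, and the difference was 0.35 ± 0.13 (SE, limma adjusted p = 0.734). Rpl11, which can bind the p53 regulator Mdm2, had no overlap either, with 12.27, 12.40 and 12.29 after BPA against 12.20, 11.61 and 12.20 in controls. Control replicate 2 was far below the other controls, and the difference was 0.32 ± 0.17 (SE).

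**Figure D2:**
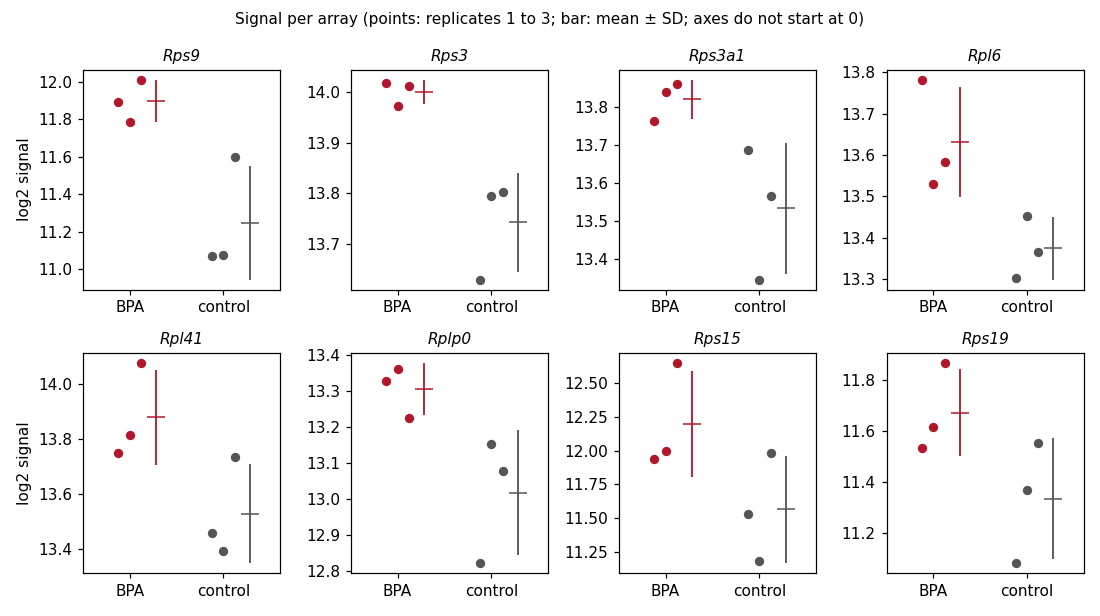
Log2 signal per array (y axis) of the 8 ribosomal protein genes with the smallest p among those higher after BPA, with BPA replicates 1 to 3 in red, control replicates 1 to 3 in grey, and mean ± SD beside them. In Rps9, Rps3, Rps3a1, Rpl6, Rpl41 and Rplp0 the 3 BPA arrays lie above the 3 controls, while the groups overlap in Rps15 and Rps19.

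The 8 genes with lower signal after BPA all had overlapping groups and lay between -0.26 and -0.0012. Rpl27a read 8.73, 8.56 and 8.60 after BPA, against 9.12, 9.02 and 8.54 in controls. Control replicate 3 lay among the BPA arrays, and the difference was -0.26 ± 0.17 (SE, limma adjusted p = 0.842). Rps18 had 14.27, 13.89 and 13.97 after BPA and 14.33, 14.25 and 14.03 in controls, a difference of -0.16 ± 0.13 (SE). Rps20 read 13.92, 13.77 and 14.08 after BPA and 14.14, 13.87 and 14.10 in controls, a difference of -0.11 ± 0.11 (SE). Rps28 read 14.23, 14.13 and 14.26 after BPA and 14.40, 14.22 and 14.25 in controls, a difference of -0.09 ± 0.08 (SE). In both, control replicate 1 was the highest array. Rpl37 read 9.85, 9.82 and 10.09 after BPA and 10.32, 9.64 and 10.03 in controls, a difference of -0.07 ± 0.19 (SE). Rpl13a read 14.10, 14.01 and 14.27 after BPA and 14.26, 14.01 and 14.22 in controls, a difference of -0.04 ± 0.10 (SE). Control replicate 1 was again the highest for Rpl37, while BPA replicate 3 was for Rpl13a. Rpl19 read 13.07, 12.85 and 12.99 after BPA and 13.06, 12.96 and 12.89 in controls, a difference of -0.0012 ± 0.0909 (SE), so its groups nearly coincided. Rpl12 read 6.43, 5.88 and 7.40 after BPA and 6.24, 6.47 and 7.23 in controls. Its replicate 3 arrays were the highest of both groups, and the difference of -0.08 ± 0.42 (SE) had the largest error of all members.

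Rps6, the target of the S6 kinases, differed by 0.12 ± 0.16 (SE) and Rpsa, also known as a laminin receptor, by 0.14 ± 0.13 (SE), both with overlapping groups. Rps7 and Rps4x had narrow groups that did not overlap although the gaps were small: Rps7 had 14.11, 14.06 and 14.14 after BPA and 14.01, 13.97 and 14.06 in controls, a difference of 0.09 ± 0.06 (SE). Rps4x, which is encoded on X, had 14.41, 14.34 and 14.41 after BPA and 14.31, 14.30 and 14.32 in controls, a difference of 0.08 ± 0.06 (SE). Both probe sets are bright, and the highest signal on any array was 15.32. Rpl7a, a large subunit protein, also separated, by 0.17 ± 0.08 (SE).

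Probe sets of a gene often differed in direction or size, and whether they differed beyond their error was not tested. Of the 20 genes with more than 1 tested probe set, 8 had probe sets on both sides of 0, 10 had all of them above and 2 (Rps20 and Rps28) all below. The standard errors of these probe sets ran from 0.06 to 0.35, and a range is never negative and widens with such error. The range of the difference within a gene had a median of 0.23 (log2). Rpl41 had the widest, 0.80: its bright _x_at probe sets differed by 0.35 ± 0.13 and 0.25 ± 0.09 (SE), while its dimmer _x_at probe set differed by -0.14 ± 0.15 and its _at probe set by -0.45 ± 0.23. On that _at probe set the BPA arrays read 7.68, 7.34 and 8.20 and the controls 8.37, 8.01 and 8.18, so the groups overlapped. For Rps9 the second tested probe set, an _x_at, read 8.15, 8.14 and 8.27 after BPA and 8.37, 7.92 and 8.27 in controls. This was a difference of 0.00073 ± 0.14718 (SE) beside the 0.65 of its _s_at probe set. For Rps3 the other probe sets, both of suffix _at, differed by -0.06 ± 0.15 and -0.10 ± 0.13 (SE).

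Rps24 is known for alternative splicing at the end of its coding sequence, and it had the most tested probe sets, 6. Those of suffix _x_at differed by 0.09 to 0.16, all with overlapping groups, whereas 1 of its _at probe sets read 8.24, 8.10 and 9.22 after BPA and 8.52, 8.98 and 9.42 in controls. That difference was -0.45 ± 0.35 (SE), with replicate 3 the highest in both groups. Rps10, a protein of the head of the small subunit, had 1 probe set with no overlap at 11.13, 11.00 and 11.17 after BPA against 10.76, 10.63 and 10.77 in controls. It differed by 0.38 ± 0.10 (SE, limma adjusted p = 0.655), and another _a_at probe set separated too, by 0.24 ± 0.10. The other 3 tested probe sets of Rps10, the brightest among them, differed by -0.06 to 0.14 with overlapping groups. Rpl13a, which in human cells can leave the ribosome to silence inflammatory messages, differed by 0.45 ± 0.18 (SE) on 1 _a_at probe set and by -0.04 to 0.06 on the other 3. For Rpl37a the 3 values were 0.57 ± 0.26, 0.31 ± 0.22 and 0.03 ± 0.10, the last on the brightest. Rps15 and Rpl35 agreed within themselves: both probe sets of Rps15 were high (0.63 and 0.77), and the 5 of Rpl35 lay between 0.18 and 0.30.

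**Figure D3:**
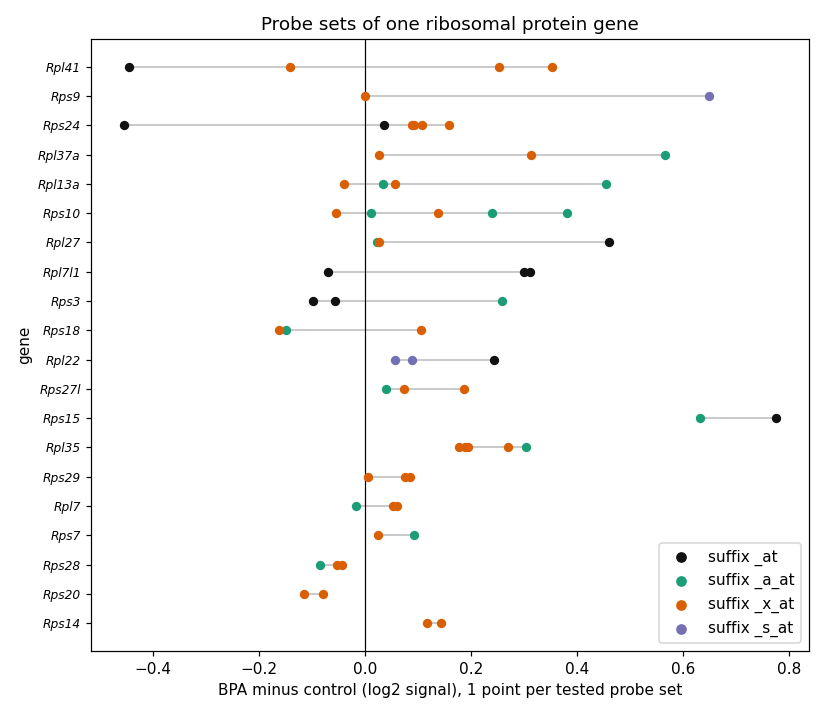
BPA minus control difference in log2 signal (x axis) of every tested probe set of the 20 ribosomal protein genes with more than 1 (y axis, widest range on top), with a colour for each probe set suffix. Rpl41, Rps24, Rpl13a, Rps10, Rpl7l1, Rps3, Rps18 and Rpl7 cross 0, and Rps15 is the only gene here with all its points above 0.6.

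In 9 cases the annotation gave the same source sequence for a pair of tested probe sets of a gene, and 3 of these pairs agreed within 0.1 (log2). For Rpl27, a large subunit protein, the _at probe set read 11.93, 11.90 and 11.94 after BPA and 11.19, 11.47 and 11.73 in controls, a difference of 0.46 ± 0.14 (SE, limma adjusted p = 0.674) with no overlap. Its _a_at probe set from the same source differed by 0.02 ± 0.12, with 11.62, 11.30 and 11.39 after BPA and 11.56, 11.37 and 11.32 in controls. The pair of Rpl7l1 differed by 0.31 and 0.30 and so agreed.

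The suffix of a probe set states how its probes were chosen: _at probes match 1 transcript, _a_at probes are shared by transcripts of a gene, _s_at probes are shared by transcripts of different genes, and _x_at sets hold probes that may bind unrelated sequences. The members had 34 probe sets of suffix _at, 28 _a_at, 40 _x_at and 3 _s_at, of which 21, 27, 38 and 3 were tested. Of the tested ones, 24 of 27 _a_at probe sets had a difference above 0 (median 0.14), 29 of 38 _x_at (median 0.07) and 13 of 21 _at (median 0.08). Among all tested probe sets, 59.9% of _a_at, 48.2% of _x_at and 51.6% of _at were above 0. Groups did not overlap for 9 of 27 _a_at, 4 of 21 _at and 2 of 38 _x_at probe sets, all higher after BPA. Over all tested probe sets the same held for 11.7% of _a_at, 7.37% of _at and 5.13% of _x_at, where 7.83% of all suffixes separated upwards. The median over all tested probe sets was 0.04 for _a_at, 0.0072 for _at and -0.0079 for _x_at. A difference between suffixes was not tested, since probe sets of a gene are not replicates. A further 98 tested probe sets named several genes of which at least 1 was a ribosomal protein gene, so they are no members. Of them, 61 lay above 0 (62.2%, median 0.04), against 52.6% of all tested probe sets. Upwards 19 separated (19.4%) and downwards 0, against 7.83% and 4.35% of all.

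The differences were also read by brightness, whose part in them was not tested. With a split at 12 on the log2 scale, chosen after the values were seen, 36 of the 45 member probe sets at or above 12 had a difference above 0 (median 0.09), against 43.4% of all 1266 tested probe sets that bright (median -0.02). Below 12 it was 33 of 44 member probe sets (median 0.07), against 53.1% of all tested probe sets that dim (median 0.01). The median residual SD between arrays of a group was 0.12 for members and 0.14 for all tested probe sets at or above 12. Below 12 it was 0.21 for members and 0.19 for all.

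Some members are paralogs, copies of a ribosomal protein gene with expression of their own, and they are given here with their parent genes where these had a tested probe set. Rpl22l1 differed by 0.09 ± 0.11 (SE) and Rpl22 by 0.09 ± 0.13 on its brightest probe set. A further probe set of Rpl22 read 11.61, 11.37 and 11.60 after BPA and 11.31, 11.19 and 11.35 in controls, without overlap, a difference of 0.24 ± 0.11. Rpl7l1, a relative of Rpl7, differed by 0.31 ± 0.15 (SE) on its brightest probe set, by 0.30 ± 0.13 on another and by -0.07 ± 0.26 on the dimmest, and Rpl7 itself by 0.06 ± 0.08; the difference between these was not tested. The 3 probe sets of Rps27l lay between 0.04 and 0.19, and the only single-gene probe set of Rps27 was below the filter. Rps4l, a relative of Rps4x, differed by 0.40 ± 0.28 (SE), with 9.43, 9.66 and 9.71 after BPA and 9.38, 8.55 and 9.67 in controls. Control replicate 2 alone was low there, and with 1 array left out at a time the difference ran between 0.078 and 0.63, the lowest without control replicate 2.

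The 16 probe sets below the median signal were not tested, and for 4 genes (Rpl3l, Rpl39l, Rps16 and Rps27) nothing else was available under a single symbol. Rpl3l, a form of striated muscle, read 5.20 ± 0.12 on the BPA arrays and 5.20 ± 0.15 on the control arrays, and Rpl39l, known from testis, read 4.33 ± 0.09 on the BPA arrays and 4.34 ± 0.20 on the control arrays (SD, 3 arrays each). Rps16 had 3.79 ± 0.09 after BPA and 3.79 ± 0.10 in controls on this probe set, near the lowest values on the arrays. Just above the filter lay Rpl12 (mean 6.61), Rpl39 (6.87) and a probe set of Rps3 (6.97), and just below it probe sets of Rps4x (6.52), Rps9 (6.41) and Rps27 (6.36). Rpl39, the short protein at the exit tunnel, read 6.802, 6.974 and 7.110 after BPA and 6.886, 6.474 and 6.999 in controls, a difference of 0.18 ± 0.17 (SE), with overlap. The dim probe set of Rps9 read 6.07, 6.13 and 6.86 after BPA and 5.90, 6.58 and 6.92 in controls, with replicate 3 highest in both groups. That probe set of Rps27 read 6.44 ± 0.11 on the BPA arrays and 6.28 ± 0.04 on the control arrays. That of Rps4x read 6.68 ± 0.13 on the BPA arrays and 6.37 ± 0.18 on the control arrays (SD, 3 arrays each).

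The starts of some genes are shown because a pyrimidine run there is the best known shared feature of these messages. RefSeq promoter windows of GRCm38.p6 were available for 43 member genes, as 51 windows of 250 bases before to 50 after the annotated start. Each line gives 40 bases before and 20 after that start, with a run of at least 8 C or T bases within 20 bases of the start in capitals. Rps9, Rps10, Rpl13a and Rpl35 hold such a run, while Rps3, Rps15 and the muscle form Rpl3l do not.
Rps9, chr7:3704001-3704060, plus strand: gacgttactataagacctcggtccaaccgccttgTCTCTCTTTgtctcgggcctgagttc
Rps10, chr17:27635225-27635284, minus strand: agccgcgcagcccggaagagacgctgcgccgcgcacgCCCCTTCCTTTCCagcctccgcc
Rpl13a, chr7:45128726-45128785, minus strand: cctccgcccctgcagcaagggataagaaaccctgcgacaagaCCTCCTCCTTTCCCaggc
Rpl35, chr2:39005112-39005171, minus strand: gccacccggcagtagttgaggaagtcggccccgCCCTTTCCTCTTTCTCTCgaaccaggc
Rps3, chr7:99483690-99483749, minus strand: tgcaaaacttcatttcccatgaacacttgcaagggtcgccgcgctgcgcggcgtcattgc
Rps15, chr10:80292391-80292450, plus strand: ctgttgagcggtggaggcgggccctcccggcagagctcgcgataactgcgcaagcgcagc
Rpl3l, chr17:24727786-24727845, plus strand: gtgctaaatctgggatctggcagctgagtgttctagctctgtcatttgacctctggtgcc

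The run, sought on the transcribed strand, was in 20 of the 51 member windows (39.2%) and in 5272 of all 32851 windows. The letters CCGGAAG, the core of ETS factor motifs, were on either strand of the whole window in 21 member windows (41.2%), against 8.86% of all. AAGATGGC, the core of the YY1 motif, was in 7.84% against 2.75%, and TATAAA in 11.8% against 13.6%. The reverse of CCGGAAG holds C and T bases in a row and can overlap a run. Annotated starts can be off by some bases, and these matches describe letters only. The 19 tested genes with a run had a median difference of 0.09 with 15 above 0, and the 20 without one a median of 0.12 with 17 above 0.

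Averaged over the 45 genes, the deviation from the average of the 6 arrays was 0.09, -0.05 and 0.15 in BPA replicates 1 to 3, against -0.04, -0.17 and 0.01 in control replicates 1 to 3. BPA replicate 2 lay below control replicates 1 and 3, the groups overlapped, and in each group replicate 3 was highest and replicate 2 lowest. The means were 0.06 ± 0.10 for BPA and -0.06 ± 0.09 for controls (SD, 3 arrays each). All 11787 tested genes averaged 0.05, 0.04 and -0.04 in the BPA replicates and -0.0018, -0.0069 and -0.04 in the controls.

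Other genes of translation were read from fixed lists. Of 43 translation factors, 29 were above 0 (67.4%, median 0.09), against 57.7% of all tested genes, and 0 passed the test. At an unadjusted limma p under 0.05, 8 were higher and 1 lower, against 3.98% and 1.36% of all tested genes. The groups did not overlap for 9 higher and 3 lower, against 8.48% and 3.53% of all. Their mean per array was 0.16, 0.05 and -0.06 after BPA against -0.05, 0.02 and -0.12 in controls. Replicate 3 was the lowest array of both groups there, where it was the highest for the ribosomal proteins. The translation factors with the smallest p were Eif2b4, a subunit of the guanine nucleotide exchange factor for initiation, at 0.36 ± 0.10 (SE), and Eif3b of the scaffold that binds the small subunit, at 0.52 ± 0.15. Eef1a1, the elongation factor that delivers aminoacyl-tRNA, differed by 0.06 ± 0.06. Of 95 ribosome biogenesis genes, 66 were above 0 (69.5%, median 0.10), against 57.7% of all tested genes, and 0 passed the test. At an unadjusted limma p under 0.05, 15 were higher (15.8%) and 0 lower, against 3.98% and 1.36% of all. Groups did not overlap for 18 higher (18.9%) and 0 lower, against 8.48% and 3.53% of all. Eif6, which keeps free large subunits apart, read 11.24, 11.29 and 11.38 after BPA and 10.50, 10.78 and 10.93 in controls, a difference of 0.57 ± 0.13 (SE, limma adjusted p = 0.655), and the kinase gene Riok1 differed by 0.39 ± 0.11. Fbl, the methyltransferase of ribosomal RNA, differed by 0.45 ± 0.19 and nucleolin (Ncl) by 0.26 ± 0.13.

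Of 28 regulators of ribosome production, 14 were above 0, against 57.7% of all tested genes. Their median was 0.0026 and 0 passed the test. The groups did not overlap for 0 higher and 3 lower, against 8.48% and 3.53% of all tested genes. At an unadjusted limma p under 0.05, 0 were higher and 2 lower, against 3.98% and 1.36% of all. Mtor differed by -0.07 ± 0.11, Larp1, which binds terminal oligopyrimidine tracts, by -0.06 ± 0.12 and Myc by 0.0072 ± 0.1057 (SE). Eif4ebp2, a repressor of initiation that mTOR inactivates, read 8.57, 8.52 and 8.10 after BPA and 9.02, 9.07 and 8.77 in controls, a difference of -0.56 ± 0.17 (SE, limma adjusted p = 0.674). Sp1 differed by -0.30 ± 0.12. Fau, a further component of the small subunit that the rule does not cover, read 12.002, 11.937 and 12.328 after BPA and 11.674, 11.548 and 11.823 in controls, a difference of 0.41 ± 0.14 (SE, limma adjusted p = 0.700).

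The balance between 3′ and 5′ probe sets of control transcripts, a sign of RNA integrity and labelling, moved with the groups. The 3′ minus 5′ log2 signal of Gapdh was 2.58, 2.91 and 2.99 after BPA, against 3.48, 3.79 and 3.40 in controls. That of Actb was 2.61, 2.83 and 2.98 after BPA, against 3.35, 3.80 and 3.68 in controls. Both were lower in every BPA array, by -0.73 and -0.80 (exact permutation p = 0.1 each, two-sided, the smallest that 3 against 3 arrays allow). Those of Pcx and Tfrc overlapped (differences -0.13 and 0.09). The part of this balance in the values of the ribosomal proteins was not tested.

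**Figure D4:**
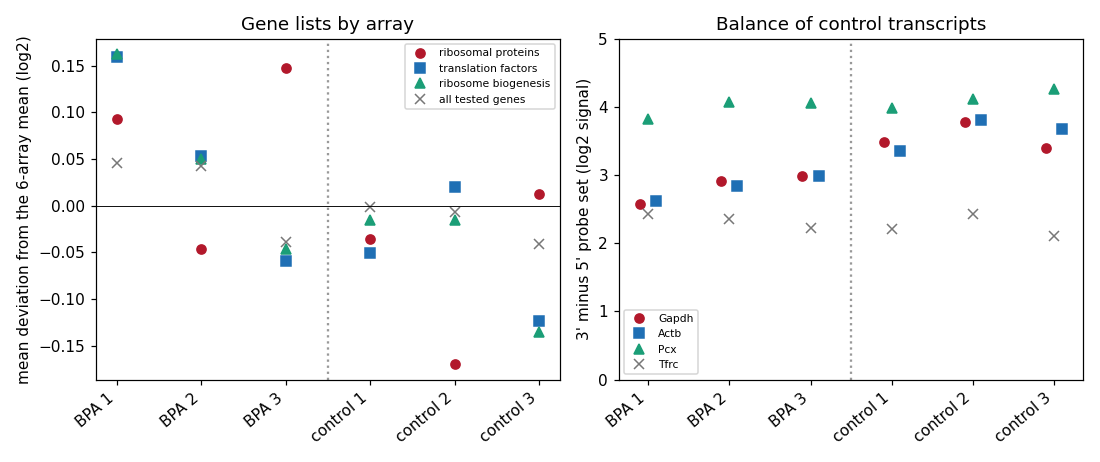
Left, mean deviation of each gene list from its 6-array mean (y axis, log2) in each array (x axis). Right, 3′ minus 5′ log2 signal of 4 control transcripts in the same arrays. The ribosomal proteins reach 0.15 in BPA replicate 3, their highest array, and -0.17 in control replicate 2, their lowest, and the balance of Gapdh and Actb is at most 2.99 in the BPA arrays and at least 3.35 in the controls.

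Markers of other cell types also differed in mean between the groups: the mean of each list below was higher in BPA samples, as it was for the ribosomal proteins. The BPA minus control difference of the list mean was 0.45 for nerve and glia, 0.31 for acinar cells, 0.30 for stellate cells and fibroblasts, 0.30 for macrophages and lymphocytes, 0.16 for duct and 0.10 for endothelium. Differences were above 0 for 19 of 20 acinar, 6 of 6 duct, 7 of 8 nerve and glia, 13 of 15 stellate, 13 of 16 macrophage and 7 of 11 endothelial genes, the tested ones of 20, 9, 9, 15, 19 and 12 named on the array. Over all tested genes 57.7% were above 0. Genes of a list can move together between arrays, so these are not counts of independent genes. The nerve and glia mean was 0.43, 0.16 and 0.09 in BPA replicates 1 to 3, against -0.20, 0.03 and -0.51 in the controls, and its groups did not overlap. The groups of the other lists overlapped. The acinar mean was 1.08, -0.04 and -0.57 in the BPA replicates, against 0.33, 0.73 and -1.52 in the controls, with replicate 3 lowest in both groups. The endothelial mean was -0.10, 0.04 and 0.22 in the BPA replicates, against -0.14, -0.05 and 0.03 in the controls. The red cell gene Alas2, the only 1 tested of 4 named, was -0.04, 0.11 and 0.30 in the BPA replicates, against -0.46, -0.20 and 0.28 in the controls. In both, replicate 3 was the highest array of each group, as it was for the ribosomal proteins. The macrophage and lymphocyte mean was 0.54, -0.10 and 0.01 in BPA replicates 1 to 3, against 0.06, -0.19 and -0.33 in the controls. That of stellate cells was 0.45, -0.0037 and 0.0073 in the BPA replicates, against 0.0035, -0.03 and -0.43 in the controls. That of duct was 0.34, -0.10 and 0.0094 in the BPA replicates, against -0.13, 0.09 and -0.20 in the controls. In each of these lists BPA replicate 1 was the highest array. The genes with the smallest p were Sncg at 1.07 ± 0.17 and Th at 0.74 ± 0.19 for nerve, Bhlha15 at 0.45 ± 0.12 and Ctrb1 at 0.53 ± 0.52 for acinar cells, and C1qa at 0.48 ± 0.15 and Lyz2 at 1.11 ± 0.52 for macrophages (log2 difference, SE). They were Tagln at 0.40 ± 0.16 and Fn1 at 1.72 ± 0.88 for stellate cells, Emcn at 0.35 ± 0.14 and Vwf at 0.51 ± 0.27 for endothelium, Krt18 at 0.24 ± 0.12 and Muc1 at 0.42 ± 0.65 for duct, and G6pc2 at -0.18 ± 0.08 and Pdx1 at -0.21 ± 0.09 for islet endocrine cells. None of these passed the test (smallest limma adjusted p = 0.655). BPA replicate 1 was the highest array for C1qa, Lyz2, Fn1 and Muc1, but not for Tagln or Krt18. It read 11.14 for Fn1, 10.77 for Lyz2 and 8.68 for Muc1. BPA replicates 2 and 3 read 7.32 and 8.46 for Fn1, 8.65 and 9.22 for Lyz2, and 6.27 and 6.56 for Muc1. In whole islets, a change in the number of cells of a type and a change in RNA per cell cannot be told apart. The part of these cells in the ribosomal protein values was not tested.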

How the data were processed

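The authors deposited 1 log2 signal per probe set and array. The submitters' processing notes name MAS5 and give no version of it; background correction, summarisation and scaling are not given in the sources used here, and the values were used as deposited. The table has no detection calls.

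Of 45101 probe sets, 64 array controls were left out; of the other 45037, 34945 had 1 gene in the platform annotation, 932 several and 9160 none. Probe sets with a mean above the median of all were kept (22518, for 11787 genes). A gene is its brightest kept probe set. BPA was compared with control in limma 3.58.1 (R 4.3.3; lmFit, eBayes with an intensity trend, two-sided, Benjamini-Hochberg over all kept probe sets, threshold 0.05), tested on simulated data. The number of arrays limits the precision.

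Named are Rps9 and Rps3, the 8 genes with the smallest unadjusted p in each direction, the 6 genes whose probe sets differed most, paralogs with their parent genes, the 3 members nearest the filter on each side, and of each other list the 2 genes with the smallest p, the last given mostly by their difference and error. Rpl7a, Rpl11, Rpl27, Rpl35, Rplp2, Rps6, Rps7, Rpsa, Eef1a1, Fbl, Ncl, Mtor, Larp1 and Myc were added after their values were seen. Members and lists were chosen with earlier results of these data known. Same-numbered replicates deviated from their group means with correlations of 0.48, 0.08 and 0.71, and differently numbered ones with -0.67 to 0.43. BPA replicate 2 had 0.40 with control replicate 1, so the numbers were not taken as pairs. The main fit thus leaves what the replicate 3 arrays share in its error. Alternatives were quantile, median and cyclic loess scaling, no or a stricter filter, eBayes without a trend or robust, a replicate block, arrays left out, and other representations of a gene.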

Additional observations from a re-analysis of the deposited data

How the results depend on the processing

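No count of probe sets or genes past the threshold moved off 0 under any alternative run, and the smallest adjusted p of a member in limma lay between 0.181 and 0.999. With the replicate number as a block it was 0.196 (0.190 over all probe sets), again with 0 calls; the numbers were not taken as pairs. Leaving out 1 array at a time gave 31 to 40 member genes above 0 and medians of 0.072 to 0.18. The count of member genes higher at an unadjusted p under 0.05, 7 as reported, was 3 to 9 over the alternatives. With only probe sets of plain suffix _at, fewer features were tested. Of these, 13 of 21 member probe sets were above 0 (61.9%), against 51.6% of all tested _at probe sets. By gene, 11 members were above 0. Fewer genes than the 45 of the main fit had such a probe set, so 11 cannot be set beside the 37 above 0 there. The median over all probe sets was 0.011 as deposited, 0.021 after quantile normalisation, 0.033 after median centring and -0.015 after cyclic loess. Probe sets near 0 turned sign, and the cause was not tested. With 1 array left out at a time the BPA minus control difference was -0.020 to 0.13 for Rpl13a 1455001_x_at, -0.10 to 0.14 for Rpl13a 1433928_a_at, -0.015 to 0.061 for Rps10 1434854_a_at, -0.18 to 0.32 for Rpl22 1448398_s_at, -0.026 to 0.12 for Rpl7 1426163_x_at, -0.0019 to 0.18 for Rps27l 1435429_x_at, -0.087 to 0.19 for Rps27l 1450925_a_at, -0.12 to 0.021 for Rpl13a 1455485_x_at. In the same way it was -0.49 to 0.27 for Rpl12 1435655_at, -0.051 to 0.058 for Rpl19 1416219_at, -0.12 to 0.065 for Rpl7 1426162_a_at, -0.13 to 0.092 for Rps9 1434624_x_at, -0.044 to 0.24 for Rps24 1436064_x_at, -0.033 to 0.25 for Rps24 1453362_x_at, -0.054 to 0.27 for Rps24 1428530_x_at, -0.067 to 0.12 for Rps24 1436500_at. It was also -0.051 to 0.11 for Rpl37a 1460543_x_at, -0.25 to 0.087 for Rpl37 1438291_x_at, -0.12 to 0.038 for Rps10 1439374_x_at, -0.37 to 0.10 for Rpl7l1 1439780_at, -0.015 to 0.14 for Rpl22l1 1417126_a_at, -0.16 to 0.015 for Rps3 1447563_at. Named brightest probe sets that kept their sign but moved by over 1.5 times gave 0.013 to 0.21 for Rpl22 1453118_s_at, -0.43 to -0.15 for Rpl27a 1437729_at, 0.019 to 0.28 for Rpl39 1423032_at, 0.0032 to 0.10 for Rpl7 1415979_x_at, 0.19 to 0.45 for Rpl7l1 1452049_at, 0.19 to 0.36 for Rplp0 1419441_at, 0.41 to 0.84 for Rps15 1416088_a_at, -0.27 to -0.086 for Rps18 1455572_x_at, 0.21 to 0.45 for Rps19 1449243_a_at, -0.20 to -0.035 for Rps20 1456436_x_at, -0.12 to -0.033 for Rps28 1451101_a_at, 0.078 to 0.63 for Rps4l 1452730_at. With quantile normalisation it was 0.0097 for Rpl19 1416219_at. With each array centred on its median it was 0.021 for Rpl19 1416219_at, 0.0040 for Rpl7 1426162_a_at. With cyclic loess it was 0.0015 for Rpl13a 1455485_x_at, 0.022 for Rpl19 1416219_at, -0.041 for Rps9 1434624_x_at, -0.0072 for Rps24 1436500_at. Without both replicate 3 arrays it was -0.011 for Rps24 1436064_x_at, -0.028 for Rps24 1453362_x_at, -0.013 for Rps24 1428530_x_at, -0.028 for Rpl37a 1460543_x_at, -0.016 for Rpl13a 1433928_a_at, -0.025 for Rps10 1434854_a_at, -0.0029 for Rpl7 1415979_x_at. Without BPA replicate 1 and control replicate 3 it was 0.0042 for Rpl13a 1455485_x_at, 0.29 for Rpl12 1435655_at, 0.0051 for Rpl41 1454639_x_at, -0.069 for Rpl13a 1455001_x_at, -0.23 for Rpl13a 1433928_a_at, -0.028 for Rps10 1434854_a_at, -0.029 for Rpl7 1415979_x_at, -0.046 for Rpl7 1426163_x_at, -0.091 for Rps27l 1450925_a_at, 0.015 for Rps3 1447563_at. With 3 arrays per group no exact test can reach the threshold, and the files give no background signal per probe set.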
